A study of Arabidopsis thaliana with 4 samples.

Results

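In whole 14-day-old seedlings of Arabidopsis thaliana, 121 of the 25663 genes with a probe on the array (0.471%) were well above background in control seedlings and not in seedlings that overexpress ERF4. They were selected by a flag that the scanner software sets for a spot well above its local background. The flag had to be set on each of the 4 arrays in the channel labelled 35S:NLS-GFP-HA and on none of the 4 in the channel labelled 35S:AtERF4-HA. Where several probes targeted a gene, the probe with the highest mean log2 signal over both channels stood for it. The same rule turned round found 43 genes (0.168%) in the AtERF4-HA channel alone. Because the flags chose the 121 genes, their signals below are a description of the choice, and no test of their difference between the genotypes is given. A spot that was not well above background has only an upper bound on its signal, so the flag does not show that a gene was silent.

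The study compared seedlings carrying 35S:AtERF4-HA with seedlings carrying 35S:NLS-GFP-HA, both in the Columbia-0 background. Both transgenes are driven by the 35S promoter of a plant virus, which is active in most tissues, and both products carry an HA tag. The control product is a green fluorescent protein with a nuclear localisation signal, so both groups carry a tagged nuclear transgene product. Seedlings grew for 14 days at 23 °C in a cycle of 16 h light and 8 h dark on sucrose agar (0.5%), and the 2 genotypes of a replicate shared a plate. There were 4 biological replicates, each on a 2-colour array with both genotypes, with 1 µg of RNA for each dye. Arrays 1 and 2 had AtERF4-HA RNA in Cy3 and control RNA in Cy5, and arrays 3 and 4 had the dyes swapped. The sources used here do not say whether a genotype was 1 transgenic line or several. RNA of whole seedlings was measured, so fewer cells of a type and less RNA per cell cannot be told apart.

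ERF4 belongs to the ethylene response factors, plant transcription factors named for the hormone ethylene. It is a class II member: it carries an EAR motif, a short stretch that recruits co-repressors, and lowers the transcription of genes it binds. The series title places these class II repressors in leaf senescence, the programmed breakdown of a leaf and the recovery of its nutrients. Senescing leaves use proteases, nucleases and transporters to take their contents apart and export them, and ethylene, abscisic acid and jasmonate hasten the process.

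Every direction below rests on the dye labels. The authors' deposited value table runs the other way by those labels on each array, with control on top, although the sample titles name AtERF4-HA first. Which is right is not known, and if the dye labels were exchanged the 121 genes would be those detected in AtERF4-HA seedlings alone. ERF4 itself (AT3G15210) read 1616, 1669.8, 3415 and 3342 on arrays 1 to 4 in the AtERF4-HA channel, against 2118, 1829, 873 and 767 in the control channel, in scanner units of signal minus background. On arrays 1 and 2 these raw signals were thus lower in the AtERF4-HA channel, which carried the dimmer dye there. After loess, which adjusts for the dyes, its log2 ratio of AtERF4-HA over control was 0.98, 0.87, 0.82 and 1.04 on arrays 1 to 4. The mean was 0.93 ± 0.07 (SE, n = 4 arrays, limma adjusted p = 0.0028 over all genes), above 0 on 4 of 4 arrays. The part of ERF4 that the probe covers is not known here. Whether it reads the transgene's RNA, that of the plant's own ERF4 or both cannot be told.

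The number of control-only genes depended on how many arrays had to carry the flag, and its excess over the AtERF4-HA-only genes rested on array 1. Of the 25663 genes, 18767 were well above background in both channels on all 4 arrays and 4771 in neither channel on any array. A further 66 genes had the flag on 4 control arrays and on 1 AtERF4-HA array, and 58 had it on 3 control arrays and no AtERF4-HA array. On array 1 alone, 1064 genes were flagged in the control channel only and 106 in the AtERF4-HA channel only. On array 2 these numbers were 427 and 409, on array 3 358 and 515, and on array 4 343 and 453. Without array 1, the rule found 124 control-only and 122 AtERF4-HA-only genes. Without array 2, 3 or 4 it found 160, 166 or 165 control-only genes, against 49, 51 or 51 AtERF4-HA-only genes. The 121 genes themselves therefore hardly depended on array 1, while the number of their mirror genes did. The part that the dyes or that array play in this imbalance was not tested.

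**Figure D1:**
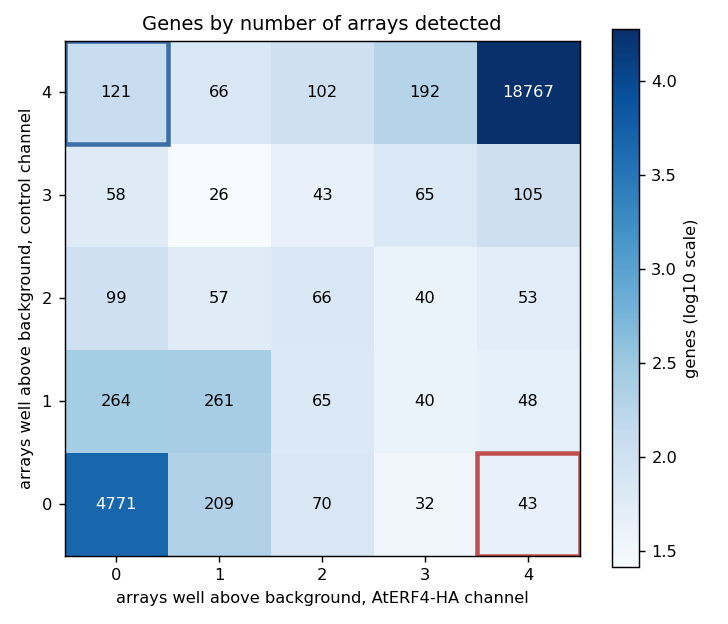
Number of genes by how many of the 4 arrays carried the well-above-background flag in the AtERF4-HA channel (horizontal axis) and in the control channel (vertical axis). The 121 control-only genes are the cell with 4 control arrays and 0 AtERF4-HA arrays, and the 43 mirror genes the cell with 0 control arrays and 4 AtERF4-HA arrays.

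**Figure D2:**
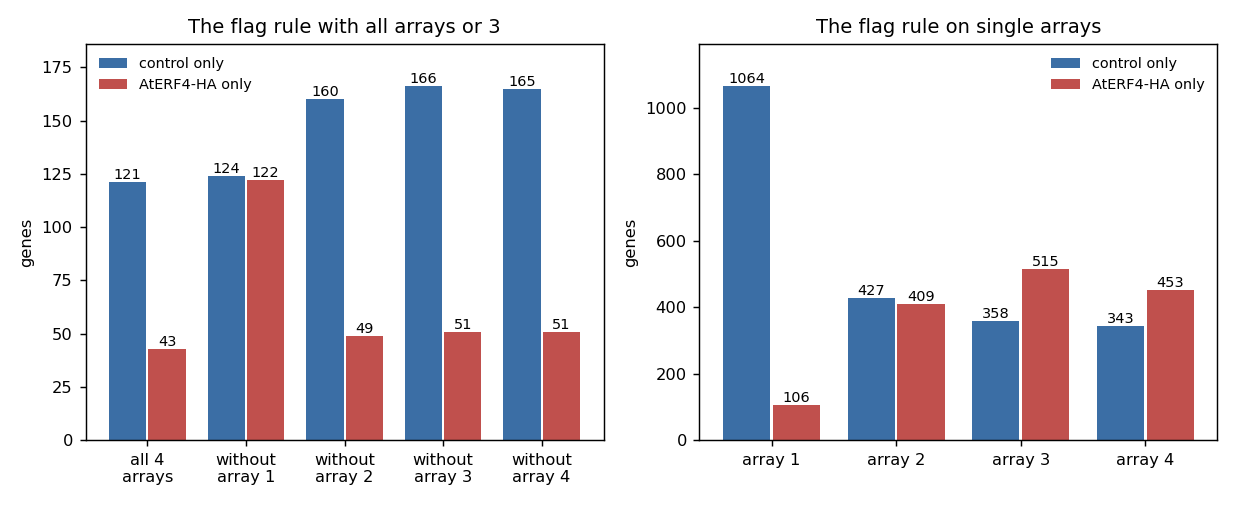
Number of control-only and of AtERF4-HA-only genes (vertical axis) by the flag rule on all 4 arrays and with each array left out (left panel), and on each array alone (right panel). The AtERF4-HA-only bar reaches 122 without array 1 and 43 to 51 otherwise, and array 1 alone has 1064 control-only genes, against 106 AtERF4-HA-only genes.

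The selected genes had dim spots in both channels. Their signal minus background had medians of 3.46, 5.26, 9.31 and 8.25 on arrays 1 to 4 in the AtERF4-HA channel, against 106, 61.5, 37.3 and 35.6 in the control channel. The highest AtERF4-HA value of any of them was 20.3, and control values ran between 14.8 and 1095. The highest control signal lay on array 1 for 98 genes, and the highest AtERF4-HA signal on array 3 for 51 and on array 4 for 43. These signals are not dye-normalized, and in both genotypes most genes were thus brightest where its RNA carried Cy5. The 2 channels did not overlap over the 4 arrays for 113 of the 121 genes, which the flags make likely. Over all genes, 1114 of 25619 (4.35%) had every control signal above every AtERF4-HA signal. Of the 121 genes, 26 had a control signal of at least 50 on every array, and 8 had one of at least 100. In the AtERF4-HA channel, 40 of the genes fell below the local background on at least 1 array. The weaker flag for a signal that is positive and significant was still set in the AtERF4-HA channel on all 4 arrays for 44 genes, and on none for 5.

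On a normalized log2 scale, the median spot level of the 121 genes was 7.58 in AtERF4-HA seedlings (7.44 to 7.69) and 7.97 in control seedlings (7.68 to 9.61). The 19248 genes well above background on all 4 control arrays had a median control level of 10.27, and the genes flagged in neither channel one of 7.503. The median control level of the 121 genes stood at percentile 4.73 of those 19248 genes. Levels of different probes describe spot brightness and not amounts of transcript. The genes sat at the lower edge of what these arrays could detect.

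**Figure D3:**
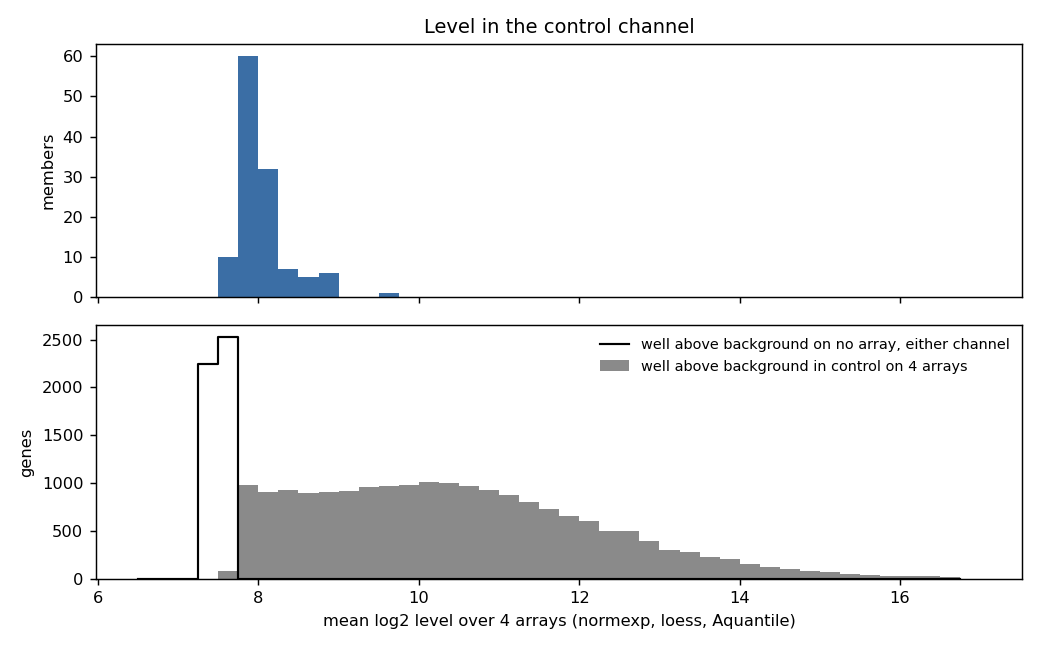
Distribution of the mean log2 spot level in the control channel over 4 arrays (horizontal axis, log2 scale). The upper panel counts the 121 control-only genes, whose levels run between 7.68 and 9.61, and the lower panel counts genes well above background on all 4 control arrays and genes flagged in neither channel.

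Since the AtERF4-HA spots have only an upper bound, each difference was also given as a bound: the control level over the higher of the gene's own AtERF4-HA level and the lowest level of any spot well above background in that channel. By this measure the genes were 1.304-fold lower in AtERF4-HA seedlings at the median (1.03-fold to 4.28-fold). The lowest flagged level was 7.53, 7.13, 5.87 and 6.78 in log2 on arrays 1 to 4. Each gene's own level was above it on some array. These values thus stay close to the normexp ratios and are no lower limit set by detection alone. The bound reached 2-fold for 11 genes and stayed under 1.2-fold for 31. With the scanner software's own processed signals, an alternative chosen after seeing the data, the median bound was 3.59-fold (1.26-fold to 32.02-fold), 100 genes reached 2-fold and 52 reached 4-fold. Normexp with an offset adds a constant to every spot, which by construction draws the ratios of dim spots toward 0. Plain subtraction with the same constant of 50 gave a median log2 ratio of -0.75, against -0.38 with normexp. The constant is thus not all that differs between the corrections.

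The brightest control-only genes covered wall metabolism, signalling and several genes without a symbol. XTH2, a xyloglucan endotransglucosylase/hydrolase of the enzymes that cut and rejoin the xyloglucan chains of the cell wall, read 1.58, 4.90, 13.2 and 3.26 in the AtERF4-HA channel, against 789, 1095, 244 and 488 in the control channel. Each of its control signals was thus more than 10 times any of its AtERF4-HA signals, and its bound of 4.28-fold (32.02-fold with processed signals) led the list. MIOX4, a myo-inositol oxygenase that makes glucuronic acid, a precursor of wall sugars, read 3.46, 4.15, 14.9 and 13.6 in AtERF4-HA seedlings, against 682, 196, 121 and 247 in control seedlings. ARCK1, a receptor-like cytosolic kinase known from abscisic acid and osmotic stress responses, read 14.3, 7.80, 12.5 and 15.6, against 679, 225, 151 and 183 in the control. BGLU24, a beta-glucosidase, read 0.805, 5.49, 15.3 and 7.76 in AtERF4-HA seedlings and 344, 308, 134 and 96.8 in control seedlings. In these 3 genes the groups did not overlap, which the flags make likely, and the control was highest on array 1. GSTU3, a tau-class glutathione transferase, the class that conjugates foreign and oxidised compounds to glutathione, read 8.71, 3.57, 1.65 and -1.48 in AtERF4-HA seedlings, against 250.2, 395, 109.9 and 72.4 in the control. As in XTH2, its control signal was highest on array 2.

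The other 7 of the 12 genes of highest control level carry no symbol in the reference table, so no role is given for them. AT5G40000 read 4.06, 5.45, 10.8 and 12.5 in the AtERF4-HA channel, against 559.5, 292, 135 and 275 in the control channel. AT3G54520 read 5.16, 7.49, 4.08 and 3.13 in AtERF4-HA seedlings, against 399, 466, 142 and 185 in control seedlings. AT3G54530, its direct neighbour in the reference gene order, read -0.616, 3.11, -4.82 and 2.97, against 252, 234, 90.7 and 170.2 in the control. Both neighbours were thus at most 7.49 above background in every AtERF4-HA channel, and both were dimmest in the control on array 3. AT5G55150 read 2.77, 9.56, 9.15 and 0.610 in AtERF4-HA seedlings and 578, 202, 78.9 and 310.0 in control seedlings. AT4G12735 read 5.15, 8.42, -2.80 and 2.32 in AtERF4-HA seedlings and 395, 225, 153 and 209 in control seedlings. AT5G61890 and AT2G17740 had AtERF4-HA signals of at most 19.5 and 14.5, against control signals of at least 134 and 147. They belong, with XTH2, AT5G40000, MIOX4, AT3G54520, ARCK1 and AT4G12735, to the 8 genes whose control signal stayed at or above 100 on every array.

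**Figure D4:**
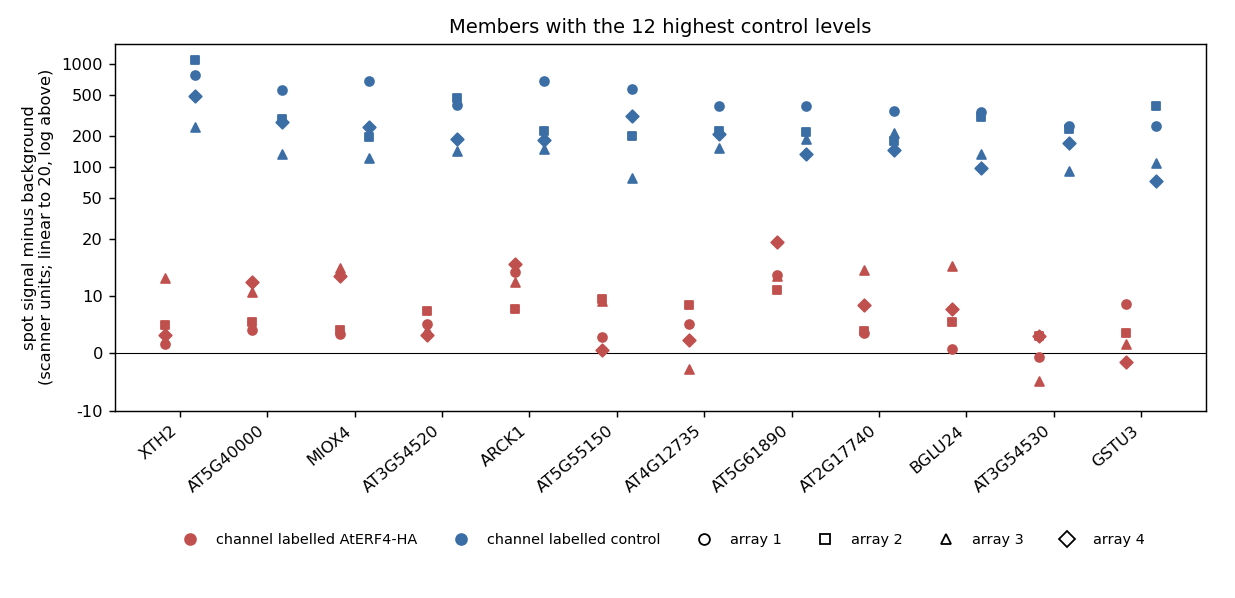
Signal minus local background (scanner units, linear to 20 and logarithmic above) of the 12 control-only genes with the highest control level, with a point for each of the 4 arrays, AtERF4-HA channel left of the control channel. Every AtERF4-HA point lies at or below 19.5, and the lowest control point is 72.4.

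Several members act in the cell wall. Of 193 genes named as expansins, extensins or enzymes of wall polymers on the array, 4 were control-only and 1 was AtERF4-HA-only. The shares over all genes on the array were 0.471% and 0.168%. Besides XTH2 these were XTH25, EXPA12 and EXPA16. Expansins loosen the contacts between wall polymers. XTH25 read 4.71, 11.1, 14.7 and 10.7 in AtERF4-HA seedlings, against 242, 63.8, 101 and 72.7 in control seedlings. EXPA12 read -1.58, 3.96, 15.7 and 17.4, against 143, 102, 92.3 and 73.7 in the control. EXPA16 was much dimmer, with 6.53, 6.47, 18.1 and 12.7 in AtERF4-HA seedlings and 65.3, 50.9, 21.5 and 15.2 in control seedlings, and its channels overlapped. AGP5, an arabinogalactan protein of the cell surface and named after its values were seen, read 4.52, -1.81, 6.67 and 10.8, against 188, 79.0, 41.1 and 62.3 in the control. The 2 families did not move as a block. Of 25 XTH genes tested with limma over all genes, 3 were called higher and 6 lower in AtERF4-HA seedlings (median log2 ratio -0.30). Of 17 alpha-expansins, 6 were called higher and 2 lower (median 0.20). The 4 control-only genes of these families were among those tested, and none of them was called. Over all 19492 genes tested, 2665 were called higher and 2338 (12%) lower, with a median of 0.01. Among expansins chosen after their values were seen, EXPA8 was higher (log2 ratio 2.58 ± 0.15, limma adjusted p = 0.0019) and EXPA17 lower (-2.60 ± 0.18, limma adjusted p = 0.0028), both in 4 of 4 arrays and both SE over 4 arrays.

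Receptor-like kinases and receptor-like proteins sense signals at the cell surface. Of 581 genes named as protein kinases, 6 were control-only: ARCK1, CRK31, CRK37, CRK13, CRK6 and WAK3. All but WAK3 belong to the cysteine-rich receptor-like kinases, many of which respond to pathogens and oxidative stress, and that family was picked for counting after the members were seen. It had 42 genes on the array, of which 5 were control-only, 27 were detected in both channels on all arrays and 3 in neither. The share of control-only genes over all genes on the array was 0.471%. CRK31 read -3.04, -1.32, 4.17 and 10.2 in AtERF4-HA seedlings, against 212, 109.9, 46.9 and 69.8 in control seedlings. CRK37 read -0.145, 0.516, 9.72 and 9.37, against 243, 27.5, 66.1 and 52.2 in the control. CRK13 and CRK6, named after their values were seen, had AtERF4-HA signals of at most 13.5 and 8.93, against control signals of 18.3 to 70.2 and 21.0 to 87.4. Of the 33 family members tested with limma, 4 were called higher and 11 lower (median log2 ratio -0.22). The 33 include the 5 control-only genes, which the flags chose, and of these ARCK1 was called lower. Among all 19492 genes tested, 2665 were called higher and 2338 (12%) lower. CRK36 and CRK11, again picked by their values, had log2 ratios of -1.95 ± 0.46 and -1.64 ± 0.19 (SE over 4 arrays, limma adjusted p = 0.041 and 0.0072), lower in 4 of 4 arrays.

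WAK3, a wall-associated kinase whose outer part binds pectin, read 1.35, 8.42, 7.74 and 1.90 in AtERF4-HA seedlings, against 209.5, 31.6, 32.4 and 33.0 in control seedlings. Its control signal was high on array 1 and lay between 31.6 and 33.0 on the others. Receptor-like proteins resemble these receptors but lack a kinase, and 2 of the 52 on the array were control-only, against 0.471% of all genes. RLP21 read -3.58, -6.43, 6.17 and 15.6 in AtERF4-HA seedlings, against 172, 79.5, 80.4 and 49.7 in control seedlings. RLP24 read 9.46, 4.28, 6.10 and 6.37, against 98.4, 92.9, 24.95 and 74.7 in the control. Both were named after their values were seen. Of 38 receptor-like proteins tested with limma, 1 was called higher and 11 lower (median log2 ratio -0.13). The 38 include RLP21 and RLP24, which the flags chose and limma did not call. The calls over all 19492 genes were 2665 higher and 2338 (12%) lower.

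Transcription factors matched by name among the members came from several families, each with a single gene so matched. NAC044, a NAC factor of the plant response to DNA damage, read 3.76, 6.98, 11.9 and 18.0 in AtERF4-HA seedlings, against 287, 148, 87.8 and 128 in control seedlings. MYB27 read 0.421, 2.70, 5.68 and 10.3, against 74.2, 115, 33.2 and 39.3 in the control. ABO3 (WRKY63), whose loss makes plants oversensitive to abscisic acid, read 0.572, 6.23, 18.5 and 13.5, against 92.9, 36.2, 20.4 and 27.8 in the control. NAC044 was thus clear of its AtERF4-HA signals on every array, while on array 3 ABO3 in the control was 20.4 against 18.5 in AtERF4-HA seedlings. These were 1 of 106 NAC, 1 of 147 MYB and 1 of 72 WRKY genes on the array, where 0.471% of all genes were control-only. None of the 59 genes named as ERF or DREB factors by symbol or synonym was control-only, and 1 was AtERF4-HA-only. Families were matched by name alone, so factors among the 71 members without a symbol could be missed. HDG8 and REM24, a homeodomain and a B3-type factor named after their values were seen, had AtERF4-HA signals of at most 6.39 and 3.03, against control signals of at least 35.3 and 22.7. GEX1, a gene known for its expression in gametes, read 4.77, 1.77, -1.08 and -0.706 in AtERF4-HA seedlings, against 64.7, 25.3, 16.3 and 18.2 in control seedlings.

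Hormone and stress genes were among the members too. AOC1, an allene oxide cyclase of jasmonate synthesis, read 2.39, 5.62, 15.3 and 15.4 in AtERF4-HA seedlings, against 106, 85.2, 43.7 and 28.7 in control seedlings. It was 1 member of a list of 44 jasmonate and ethylene defence genes. SAUR12 and SAUR38 belong to the small auxin-up RNAs, and HVA22B is a relative of a barley gene induced by abscisic acid. These 3 genes, named after their values were seen, had AtERF4-HA signals of at most 14.1, 14.6 and 18.7, against control signals of at least 48.4, 22.2 and 73.1. The SAUR genes as a family did not follow: 19 of 55 tested with limma were called higher and 8 lower (median log2 ratio 0.16). SAUR12 and SAUR38 were among those 55 and were not called. Over all 19492 genes tested, 2665 were called higher and 2338 (12%) lower. HSP17.6II and HSP17.6A, small heat shock proteins that hold unfolding proteins in solution, are direct neighbours. HSP17.6II read 5.96, 6.22, 6.21 and 7.22 in AtERF4-HA seedlings, against 29.6, 26.1, 37.3 and 20.9 in control seedlings. HSP17.6A read 4.52, 8.55, 13.8 and 14.4, against 56.9, 33.6, 49.3 and 39.4 in the control. Both were low in both genotypes. Of 14 genes of the heat shock list tested with limma, 5 were called lower, against 12% of all genes tested, and none higher (median log2 ratio -0.63). The 14 include HSP17.6II and HSP17.6A, which the flags chose and limma did not call.

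Enzymes that modify small molecules and transporters made up another group of members. Of 238 cytochrome P450 genes, a family of oxygenases, 4 were control-only, against 0.471% of all genes. CYP96A5 read 0.934, 0.782, 1.03 and 18.8 in AtERF4-HA seedlings, against 127, 137, 20.9 and 79.6 in control seedlings. CYP89A6 read 0.547, 11.2, -2.14 and 4.48, against 88.7, 80.8, 65.9 and 64.9 in the control, the steadiest control signals of the 4. CYP702A3 and CYP76G1 had AtERF4-HA signals of at most 15.7 and 8.92, against control signals of 22.5 to 56.8 and 24.2 to 43.2. UGT76E12 was the single member matched by name among 81 genes named as UDP-glycosyltransferases, which attach sugars to small molecules. It read -2.01, 11.9, 6.19 and -2.59 in AtERF4-HA seedlings and 158, 121, 81.3 and 27.9 in control seedlings. AT3G46680, a member without a symbol that the match by name could not place, is separated from UGT76E12 by 2 genes. Of these, UGT76E11 was detected in both channels with a log2 ratio of -0.09, and the other was not on the array. Among families tested with limma, 46 of 175 P450 genes were called lower and 24 higher (median log2 ratio -0.06). For glutathione transferases, 19 of 43 were called lower and 5 higher (median -0.51). The control-only genes of both families were among those tested, and none of them was called. Over all 19492 genes tested, 2338 (12%) were called lower and 2665 higher.

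Of 359 genes named as transporters, 3 were control-only and 4 AtERF4-HA-only, against 0.471% and 0.168% of all genes. LHT7, of the lysine and histidine transporter family, read 6.002, 6.74, 12.6 and 11.4 in AtERF4-HA seedlings, against 320.3, 61.5, 109 and 124 in control seedlings. NRT2.6, a nitrate transporter, read -0.547, 10.9, 6.505 and -1.63, against 65.9, 36.5, 19.8 and 16.0 in the control. PUP17, of the purine permease family, read -0.623, 0.120, 11.8 and 11.6, against 45.6, 25.4, 17.3 and 15.6. On arrays 3 and 4 NRT2.6 and PUP17 in the control thus stayed below 20. Other genes with a known role, named after their values were seen, were ENDO2, a nuclease, DELTA-VPE, a vacuolar processing protease, SBT3.3, a subtilase, and GAD4, a glutamate decarboxylase that makes GABA. ENDO2 read 2.61, 5.06, 10.2 and 9.72 in AtERF4-HA seedlings, against 180.1, 85.6, 143 and 46.3 in control seedlings. DELTA-VPE read 3.80, 4.43, 8.26 and 5.20, against 156, 186, 52.3 and 33.4 in the control. SBT3.3 and GAD4 had AtERF4-HA signals of at most 6.40 and 16.2, against control signals of at least 26.5 and 23.6.

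Of the 121 genes, 50 had a symbol of their own and 26 fell in at least 1 of the keyword families. The reference table held 119 of them, all protein coding, and left out AT3G24954 and ATMG00300. Chromosomes 1 to 5 held 22, 18, 28, 23 and 29 of the genes, which is 0.330%, 0.451%, 0.548%, 0.592% and 0.483% of their genes on the array, and 1 gene is mitochondrial. A second probe existed for AT3G11385 and AT5G11360. Those probes were well above background on 0 AtERF4-HA arrays each, and on 2 and 3 control arrays. A further 10 members with a symbol, TET9, MLO9, SOB5, HSD1, SOT7, GDPD3, HAF2, PAB1, DAR3 and AACT1, were named after their values were seen. Their highest AtERF4-HA signals ran between 5.22 and 20.3, against highest control signals of 38.5 to 378. In 9 of the 10 the channels did not overlap, which the flags make likely. Over all genes, 4.35% had every control signal above every AtERF4-HA signal. The exception among the 10 was HAF2, with 2.81, 7.47, 20.3 and 14.0 in AtERF4-HA seedlings and 49.3, 39.3, 15.4 and 20.8 in control seedlings. Of 71 members without a symbol, 64 lay below the 12 highest control levels. Their AtERF4-HA signals reached at most 20.2 on any array, and their highest control signals reached 26.02 at the least and 629 at the most.

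The ratio of AtERF4-HA over control depended on the background correction more than on the array. With normexp and loess, the median log2 ratio of the 121 genes was -0.38 (-2.15 to -0.04), and the median over all genes tested was 0.01. By array the members' medians were -0.20, -0.61, -0.04 and -0.66. The pairs of arrays with the same dye orientation gave medians of -0.44 for arrays 1 and 2 and -0.35 for arrays 3 and 4. Plain subtraction with a constant of 50 added, an alternative chosen after seeing the data, gave -0.84, -0.67, -0.76 and -0.68 by array and -0.75 over all 4. The processed signals, with no constant added, gave -3.32, -2.96, -2.87 and -3.14, and -3.04 over all 4. Ratios were below 0 on all 4 arrays for 119 genes and on 3 arrays for the other 2. In the fit across all genes, 2338 of 19492 (12%) were called lower in AtERF4-HA seedlings and 2665 higher at a limma adjusted p under 0.05. Of the 121 genes, 4 were called lower, ARCK1, AT3G24954, AACT1 and AT2G41810, and 70 had an unadjusted p under 0.05. Since the flags used the same contrast, nothing is read from these counts. Among the named genes XTH2, with log2 ratios of -1.24, -3.45, -0.32 and -3.58, was not called.

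**Figure D5:**
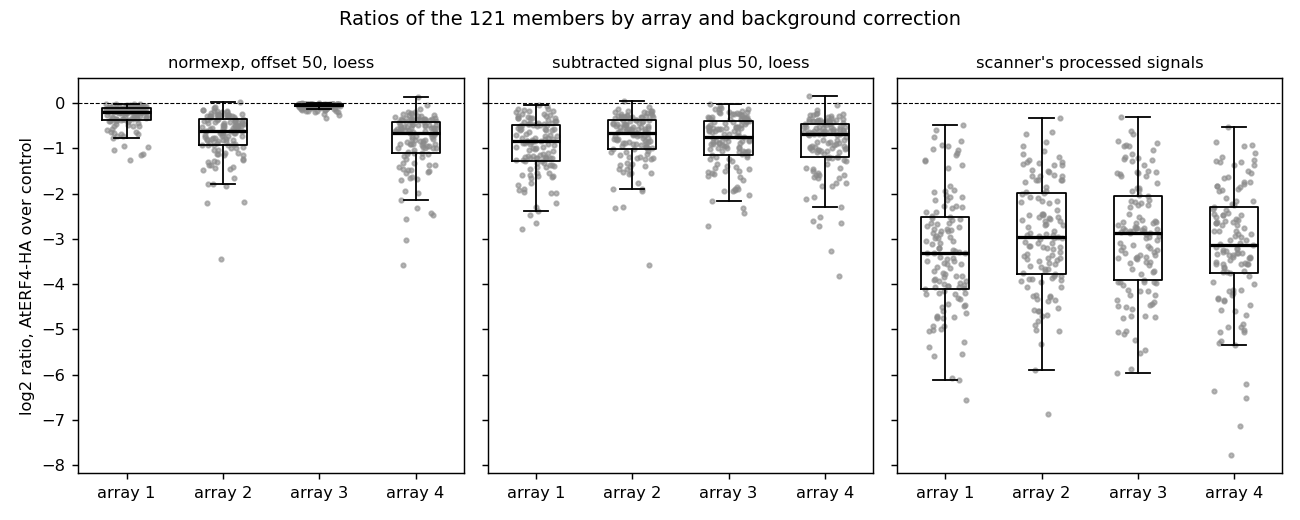
Log2 ratio of AtERF4-HA over control for the 121 genes on each of the 4 arrays, in a panel for each background correction, with a point per gene and boxes of the median and quartiles (whiskers reach up to 1.5 times the box). Medians by array were -0.20, -0.61, -0.04 and -0.66 with normexp, -0.84, -0.67, -0.76 and -0.68 after subtraction with 50 added, and -3.32, -2.96, -2.87 and -3.14 with processed signals.

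Reading the genes on an array left out of the flag choice is a description and no test. Each gene's probe was chosen by its mean signal over all 4 arrays, so the array left out was not wholly apart from the choice. Genes were picked by the flags of 3 arrays and then read on the other array, where those that kept the pattern are by construction the 121 genes. Of 124 genes picked without array 1, 121 had the same flags on array 1 and 3 were flagged in both channels. Of 160 picked without array 2, 121 kept the pattern, 17 were flagged in both channels and 22 in neither. Of 166 picked without array 3, 121 kept it, 21 were flagged in both channels, 21 in neither and 3 in the AtERF4-HA channel alone. Of 165 picked without array 4, 121 kept it, 25 were flagged in both channels, 15 in neither and 4 in the AtERF4-HA channel alone. The log2 ratio on the array left out was below 0 for 100%, 95.6%, 96.4% and 95.2% of the picked genes, against 49.4%, 52.3%, 41.1% and 50.3% of all 25658 genes with a ratio. Medians on that array were -0.19, -0.51, -0.03 and -0.56 for the picked genes, and 0.00, -0.01, 0.01 and -0.00 for all genes. The 4 readings are not independent, since the sets of genes overlap. Of 122 genes picked as AtERF4-HA-only without array 1, 43 kept the pattern on it, 31 were flagged in both channels, 27 in neither and 21 in the control channel alone. Their log2 ratio on array 1 was below 0 for 23 (18.9%), against 49.4% of all genes, with a median of 0.06.

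The border of the rule ran through a range of similar signals at its dim end and cut off bright genes at the other. Just inside, AT4G15460 read 10.6, 6.60, 8.50 and 17.2 in AtERF4-HA seedlings, against 39.2, 24.3, 15.4 and 14.8 in control seedlings. AT3G50200 read 6.89, 7.19, 16.0 and 6.58, against 30.3, 30.6, 15.4 and 15.0 in the control. AT3G46680 read 1.08, 4.24, 4.06 and -2.03, against 115, 66.0, 46.8 and 15.3 in the control. AT5G64450 and AT3G05860, also among the 4 lowest in control level, had lowest control signals of 17.4 each. Just outside were genes flagged in AtERF4-HA seedlings on a single array. AT4G12490 read 6.28, 43.9, 14.3 and 14.6 in AtERF4-HA seedlings, against 7329, 1944, 1534 and 2345 in control seedlings. NATA1, an acetyltransferase, read 8.70, 18.9, 16.7 and 0.0627, against 4847, 2701, 1877 and 72.9 in the control. Both had control signals far above those of any of the 121 genes on array 1, and missed the rule by 1 flag. THA1, a threonine aldolase, read 7.05, 14.6, 13.8 and 11.8 in AtERF4-HA seedlings and 1222, 210.0, 172 and 217 in control seedlings. MEA, a Polycomb gene known from seeds, read 7.75, 14.8, 10.6 and 3.66, against 469, 425, 232 and 203 in the control. On the other side, AT5G04380 was flagged in the control on 3 arrays, with 3.61, 6.40, 4.30 and 2.49 in AtERF4-HA seedlings and 265, 114, 51.1 and 11.5 in control seedlings. AT3G12910, AT5G57510 and AT5G22520 likewise missed 1 control flag, and their lowest control signals were 12.5, 1.00 and 12.3.

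The pathway lists used for the whole series are short, so at the 0.471% of all genes that were control-only a list would hold less than 1 of them. None was among 41 senescence genes, 34 abscisic acid and dehydration genes, 32 salicylate defence genes, 19 camalexin genes or 27 phosphate starvation genes. Besides AOC1, the lists held GSTU3 among 32 redox and xenobiotic stress genes, and the pair of small heat shock genes among 18 heat shock genes. Genes of those lists were mostly bright enough to be tested in both genotypes. With limma over all genes, 27 of 39 senescence genes tested were called lower and 3 higher (median log2 ratio -0.64). For redox genes, 27 of 32 were called lower and none higher (median -1.31). For phosphate genes these were 18 of 26 lower and 2 higher (median -1.44), and for jasmonate and ethylene defence genes 15 of 39 lower and 3 higher (median -0.40). Abscisic acid and dehydration genes had 12 of 30 lower and 6 higher (median -0.20). Salicylate defence genes had 10 of 28 lower and 3 higher (median -0.17), and camalexin genes 8 of 16 lower and 2 higher (median -0.54). Over all 19492 genes tested, 2338 (12%) were called lower and 2665 higher. AOC1 and GSTU3, which the flags chose, were among the genes tested and were not called. The lists were chosen with earlier results of these data known.

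None of the 121 genes was on the lists of leaf, root, seed or flower markers. All 9 leaf and all 17 root markers were above background in at least 1 channel and array. With limma over all genes, 5 of the 9 leaf markers were called higher and 1 lower in AtERF4-HA seedlings (median log2 ratio 0.32). Of 15 root markers tested, 4 were called higher and 2 lower (median 0.38). Over all 19492 genes tested, 2665 were called higher and 2338 (12%) lower. The summed signals below are not dye-normalized, so they are set side by side within a dye. Each such comparison takes the 2 genotypes from different arrays, with no scaling between arrays and without the pairing of a replicate. Leaf markers summed to 473706 and 540307 in the AtERF4-HA channels with Cy3, against 373581 and 354994 in the control channels with Cy3. With Cy5 they summed to 1531669 and 1562783 in AtERF4-HA channels, against 1355814 and 1233391 in control channels. The leaf sums were thus higher in AtERF4-HA seedlings within both dyes. Root markers summed to 16558 and 19332 in AtERF4-HA channels and 15392 and 18982 in control channels with Cy3, and to 29511 and 37243 in AtERF4-HA channels and 35479 and 32384 in control channels with Cy5, so the root sums overlapped within both dyes. Of 18 seed markers 10 were above background nowhere, CRB, SESA1, SESA2, SESA3, SESA4, OLEO1, OLEO2, PER1, ABI3 and TIP3;2. The seed list summed to 33.5 to 80.7 in AtERF4-HA channels and 189 to 1338 in control channels, with the highest on array 1. Of 12 flower and pollen markers 5 were above background nowhere, AP1, AG, LFY, ACT4 and ACT12, and of 4 tested 3 were called lower and none higher (median log2 ratio -0.76). With Cy3 that list summed to 1443 and 1789 in AtERF4-HA channels, against 3801 and 3586 in control channels, and with Cy5 to 4173 and 3688, against 8795 and 5894. The flower and seed sums were thus lower in AtERF4-HA seedlings within both dyes. Most of the flower sum was ACT11, which on array 1 read 1300 of 1443 in the AtERF4-HA channel and 5844 of 8795 in the control channel. The seed sum in AtERF4-HA channels was at most 80.7 over 18 genes, so neither sum speaks for a whole tissue. The part of these tissues in the choice of the 121 genes was not tested.

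The 43 mirror genes were dim as well, with a median log2 ratio of 0.23. None was called higher by limma, against 2665 of all 19492 genes tested. HAK5, a potassium transporter, read 92.3, 269.6, 179.8 and 277 in AtERF4-HA seedlings, against 16.0, 3.76, 7.56 and 1.27 in control seedlings. NRT2.1, a nitrate transporter of the root, read 50, 48.5, 120.8 and 81.4, against 5.63, -2.99, 3.76 and -1.82 in the control. By the flags, nitrate transporters of the same family thus stood on both sides, and neither NRT2.1 nor NRT2.6 was called by limma.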

How the data were processed

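Intensity values of green and red spots come from the scanner output that the authors deposited, with median, local background, background-subtracted and processed signals and flags. The submitters' processing notes name Agilent Feature Extraction 9.1.3.1. Per the file headers the log10 ratio in them is red over green, and all 4 arrays came from 1 slide and 1 scan, which could not be tested as batches. The deposited value table holds natural log ratios: its slope against the log2 of red over green had the size of the natural log of 2 on each array, its column medians were -0.22, -0.05, -0.14 and -0.08, and its columns are not centred. Median spot signals ran between 122 and 222 over backgrounds of 58 to 60, and 58.0% to 62.4% of gene spots carried the flag. Array-to-array correlations of the ratios were 0.70 to 0.87. The number of arrays limits the precision of every value.

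Of 37478 probes, 26236 carried a gene identifier. Symbols came from the RefSeq table of TAIR10.1, which held 25447 of the 25663 genes. The sources used here do not name the array's build, so no coordinates are printed. Signals in the text are background-subtracted and not dye-normalized. For ratios, median signals were corrected with normexp (offset 50), normalized by loess, turned to AtERF4-HA over control by the dye labels and fitted with a genotype and a dye term in limma 3.58.1 (R 4.3.3), tested on simulated data. Outlier-flagged spots were left out. Genes well above background on 4 arrays in a channel were tested, and a Benjamini-Hochberg adjusted p under 0.05 was called. Levels and bounds add scaling between arrays (Aquantile). The fit left 2 residual degrees of freedom, with a prior of 2.79.

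The 121 genes, the lists and the keyword families were chosen with earlier results of these data known. Families were matched on RefSeq symbols and synonyms, where the design had assumed descriptions. A gene without such a name was thus not counted in its family. Genes were named by rule: the 12 highest control levels and the 12 largest bounds, the 4 lowest levels, list members, up to 4 per family and the genes at the border of the rule. Others are said to be named after their values were seen. Alternatives were other flag rules, corrections, scalings, filters and each array left out.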

Additional observations from a re-analysis of the deposited data

Results flagged for a closer look

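The log2 ratios of 2 members had an array far from the other 3, out of 40 sets of values checked, and chance alone would give such an array in about 1 of 20 sets. HSP17.6A stood at -0.60 on array 4, against -0.10, -0.15 and -0.07 on arrays 1 to 3. CYP76G1 stood at -0.73 on array 4, against -0.07, 0.04 and -0.04 on arrays 1 to 3. These ratios are those with normexp. After subtraction with 50 added, HSP17.6A stood at -0.44, -0.16, -1.13 and -0.66 on arrays 1 to 4, and CYP76G1 at -0.36, 0.05, -0.69 and -0.80. With that correction array 4 was thus not far from the other arrays. In signal minus background on array 4, HSP17.6A read 14.4 in AtERF4-HA seedlings and 39.4 in control seedlings, where the other arrays ran between 4.52 and 13.8 and between 33.6 and 56.9. CYP76G1 read -2.12 in AtERF4-HA seedlings and 43.2 in control seedlings, where the other arrays ran between 0.186 and 8.92 and between 24.2 and 33.1.

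Probes without an Arabidopsis gene identifier lay outside the comparisons. Of 11242 such probes, 20 were well above background on all 4 control arrays and on no AtERF4-HA array, and 11 had the reverse pattern.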

How the results depend on the processing

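The number of control-only genes was 271 with the flag on at least 3 control arrays and at most 1 AtERF4-HA array, 37 with the positive and significant flag, and 124 to 166 with an array left out. The same settings gave 163, 8 and 49 to 122 AtERF4-HA-only genes, the 122 without replicate 1. With any probe of a gene the counts were 123 and 43. The members' median log2 ratio was -0.69 without background correction, -0.75 after subtraction with 50 added, -3.04 with processed signals, -2.92 in the value table turned to the dye labels, and -0.55 to -0.24 with an array left out. Genes called lower by limma numbered 4924, 4885 and 3926 in the first 3 of these settings, and genes called higher 4194, 4170 and 5050, with 7892 higher in the value table and 3063 lower. With an array left out, 400 to 3913 were called lower and 201 to 3282 higher: without replicate 1, 2, 3 or 4 the lower calls were 413, 400, 3913 and 2015 and the higher calls 237, 201, 3282 and 2135. Members called lower numbered 118 without correction, 116 after subtraction, 121 with processed signals and in the value table, 63 with median centring, 1 with a normexp offset of 16, 3 without the filter on dim probes, and 0, 0, 98 and 10 without replicates 1 to 4. Calls of members thus turned on the correction and on single arrays. A median ratio below 0 is fixed by the choice of the genes and shows no stability. The causes were not tested. Of 38 named members, 1 had a ratio above 0 without replicate 2, and 38 moved by over 1 SD with processed signals or the value table, 16 after subtraction and 13 without correction. The median bound was 3.59-fold with processed signals, against 1.29-fold without Aquantile and 1.22-fold with the floor at percentile 1. Pairing is part of the fit itself, since each ratio is taken between the genotypes of 1 replicate on 1 array. The planned search for promoter motifs was not run, as no promoter sequences were used here. Signal over background limits all values: under 20 scanner units separate most AtERF4-HA spots of these genes from their background.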
